A study of Homo sapiens with 2 samples.

Results

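The regions described here are the MLL3 and GRHL2 ChIP-seq regions at 6 genes of the Notch pathway. These are the receptors NOTCH1, NOTCH2 and NOTCH3, the ligands JAG1 and JAG2, and the transcriptional target HES1. A region was included when its summit, the base of highest signal, lay in the gene or within 25 kb of either end, with gene bounds given to the nearest 1 kb in hg19. This took 5 of 12150 MLL3 regions and 58 of 152864 GRHL2 regions, in windows that add up to 618 kb. The rule used gene positions and no measured value, but the genes were chosen with earlier results of these data known.

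The cells were KYSE510, an established line of human esophageal squamous cell carcinoma, grown in culture without treatment and fixed. One group was precipitated with an antibody against MLL3 and the other with an antibody against GRHL2, with 1 library each. Both lists were called against input. Neither factor was replicated, so the values have no replicate error and the libraries could not be tested against each other. Read depth and RNA were not analysed here, and a listed region says nothing of the expression of the gene. Many GRHL2 regions are listed at low significance: 34 of the 58 had a −log10 q under 2, and the lowest was 0, so a listing alone does not show enrichment.

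Notch receptors are cell-surface proteins that are cut when a Jagged or Delta ligand on a neighbouring cell binds them. The freed intracellular part enters the nucleus, joins the DNA-binding protein RBPJ and switches on genes such as HES1, which encodes a repressor of the bHLH class. In squamous epithelia the pathway is known for driving cells out of the basal layer into differentiation, and NOTCH1 is recurrently mutated in squamous carcinomas. GRHL2 belongs to the Grainyhead family of transcription factors and maintains epithelial identity, and MLL3 (gene KMT2C) methylates histones at enhancers.

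The sequences just before the starts of 4 of the genes are shown. In NOTCH2, JAG1 and JAG2 a listed GRHL2 region spans the start of the gene as placed to the nearest 1 kb. No region spans that of HES1, which is shown for its RBPJ-type motif. In NOTCH2, JAG1 and JAG2 an end of the region lies under 1 kb from the placed start, so the region may not span the exact start. Each line gives the 250 bases before the start, 5′ to 3′ in the direction of the gene, from RefSeq on GRCh38.p14, a later build than the hg19 of the regions. Capitals mark GTGGGAA, the core of the sequence that RBPJ binds. The stretches are chr1:120069663-120069912 (minus strand) for NOTCH2, chr20:10674000-10674249 (minus) for JAG1, chr14:105168777-105169026 (minus) for JAG2 and chr3:194135898-194136147 (plus) for HES1.
NOTCH2: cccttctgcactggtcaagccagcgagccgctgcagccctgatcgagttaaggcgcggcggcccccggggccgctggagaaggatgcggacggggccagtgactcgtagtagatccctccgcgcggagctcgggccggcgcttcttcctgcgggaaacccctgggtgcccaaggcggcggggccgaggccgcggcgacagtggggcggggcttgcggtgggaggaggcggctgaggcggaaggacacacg
JAG1: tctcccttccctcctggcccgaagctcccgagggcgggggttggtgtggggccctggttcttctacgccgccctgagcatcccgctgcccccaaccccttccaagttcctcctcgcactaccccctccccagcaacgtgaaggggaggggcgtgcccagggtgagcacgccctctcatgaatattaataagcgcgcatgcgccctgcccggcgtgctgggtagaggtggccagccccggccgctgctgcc
JAG2: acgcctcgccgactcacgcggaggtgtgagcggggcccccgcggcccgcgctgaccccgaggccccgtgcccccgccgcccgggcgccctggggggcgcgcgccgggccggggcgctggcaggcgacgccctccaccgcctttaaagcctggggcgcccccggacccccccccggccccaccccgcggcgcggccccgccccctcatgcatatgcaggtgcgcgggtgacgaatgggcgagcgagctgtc
HES1: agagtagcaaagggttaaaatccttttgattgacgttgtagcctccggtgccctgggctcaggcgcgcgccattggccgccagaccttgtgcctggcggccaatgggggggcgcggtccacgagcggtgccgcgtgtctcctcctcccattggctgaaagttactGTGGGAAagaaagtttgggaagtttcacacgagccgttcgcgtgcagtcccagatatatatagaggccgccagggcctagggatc
All 6 genes were matched in the RefSeq table, and their stretches of 300 bases (250 before the start and 50 after) had a GC content between 59% in HES1 and 79.7% in JAG2. The median over all 35116 such stretches was 58.7%. The Grainyhead motif AACCNGTT, searched on both strands, was in none of the 6, in 1 of 28 other pathway genes (RBPJ) and in 1.73% of all stretches. Its palindromic form AACCGGTT was in none of these 34 and in 0.134% of all. The looser AACNNGTT, which includes AACCNGTT, was in that of JAG2, in the bases after the start, and in 3.52% of all. GTGGGAA, searched on both strands, was found in HES1, with its initial base 85 bases before the start. It was also in 5 of the 28 other pathway genes (HES4, HES5, HEY2, HEYL and RBPJ) and in 6.25% of all stretches. A missing motif says only that these letters are not in the window, and the sequences under the regions themselves were not analysed here.

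MLL3 was listed at 5 of the 6 genes, with 1 region each at NOTCH1, NOTCH3, JAG1, JAG2 and HES1 and none at NOTCH2. GRHL2 was listed at all 6, with 5 to 17 regions each. Such listings are common: of all end-to-end stretches as long as these windows, 67.3% (HES1) to 87.4% (NOTCH2) held at least 1 GRHL2 region. All 5 MLL3 regions overlapped a GRHL2 region by at least 1 bp (5 of 5, exact Clopper-Pearson 95% interval 47.8 to 100%), and of the whole MLL3 list 85.0% did. With so few regions the share at these genes could not be told from that of the list. At NOTCH3, JAG2 and HES1 the MLL3 region lay inside the GRHL2 region of highest fold enrichment at that gene. Fold enrichment is the authors' ratio of ChIP signal to local background at the summit, and it is used here to describe regions within their own list.

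**Figure D1:**
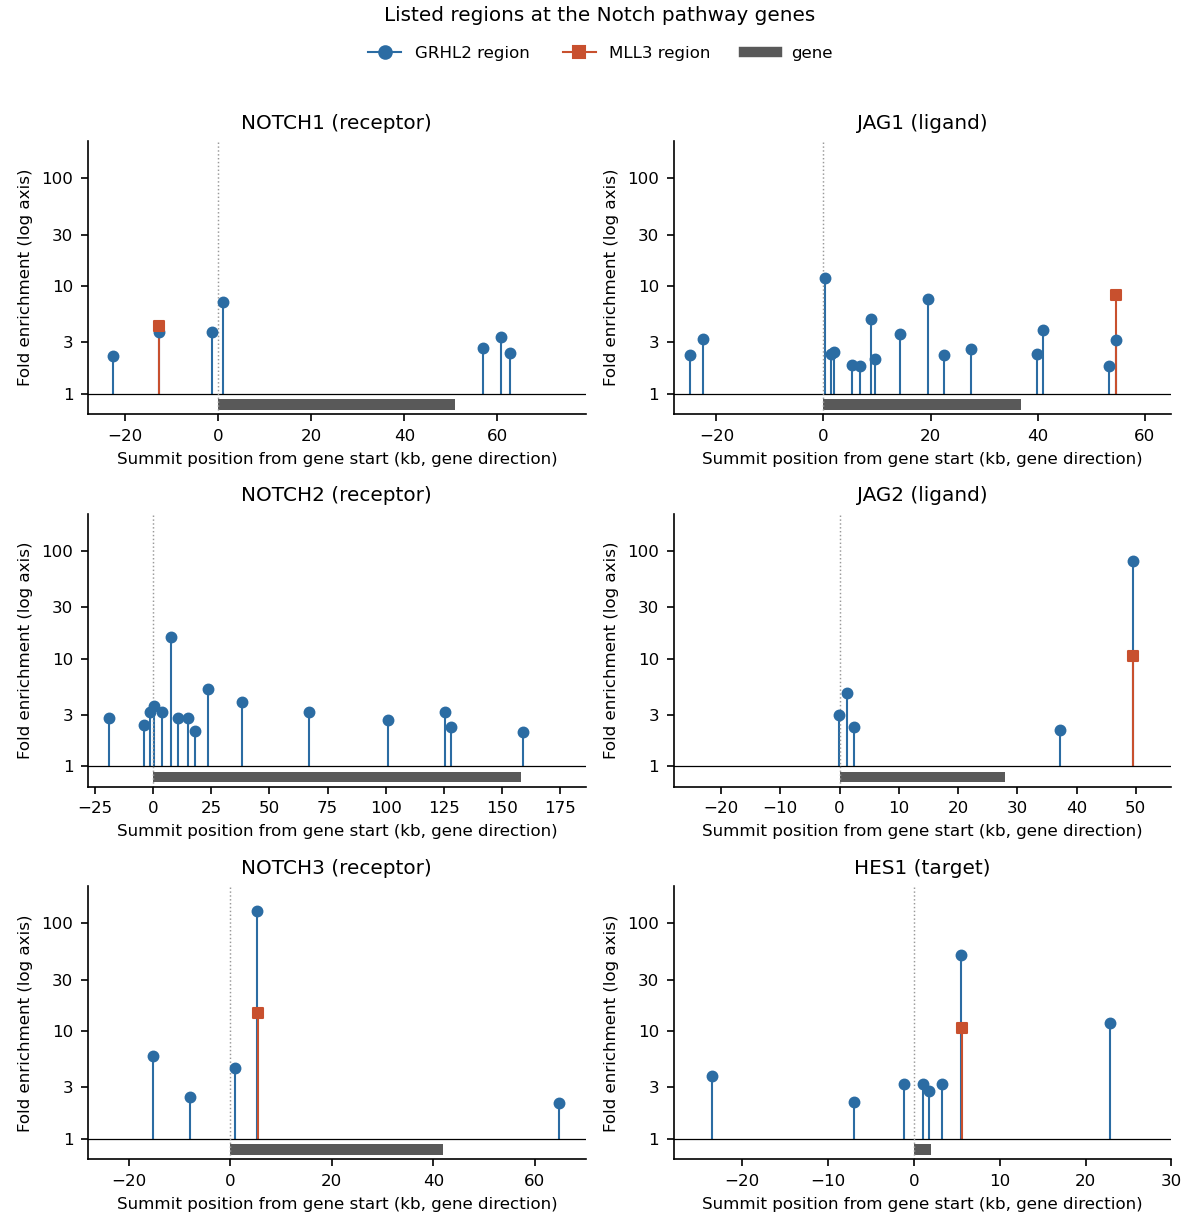
Listed GRHL2 (blue circles) and MLL3 (red squares) regions at the 6 genes, with the summit position from the gene start in kb along the gene on the x axis, the authors' fold enrichment on a log y axis and the gene as a grey bar. MLL3 overlaps a GRHL2 region by at least 1 bp at 5 genes. At JAG1 the overlap is 124 bp and that GRHL2 region has a −log10 q of 1.36. NOTCH3, JAG2 and HES1 each have a GRHL2 region of fold 50.4 or more.

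NOTCH3, a receptor of epithelia and of vascular smooth muscle, carried the strongest pair. Its GRHL2 region at chr19:15305879-15307412 had a fold of 130.7 and a −log10 q of 762, which is rank 32 of the 152864 GRHL2 regions by fold. The summit lay inside the gene, 5.35 kb from the start. MLL3 was listed at chr19:15306416-15306785 with a fold of 14.7 and a −log10 q of 36.5, rank 962 of 12150, entirely within the GRHL2 region. The summits of the factors were 56 bp apart. The other 4 GRHL2 regions at NOTCH3 were far weaker. The second highest, upstream of the gene at chr19:15326744-15327805, had a fold of 5.85, so that the strongest region exceeded it 22.4 times. Near the start, a GRHL2 region at chr19:15310387-15311293 had a fold of 4.54 and a −log10 q of 4.88. The remaining pair had folds of 2.14 and 2.45.

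NOTCH1, the receptor best known for its part in squamous differentiation, had an MLL3 region low in its list and no GRHL2 fold above 7.17. Its MLL3 region at chr9:139452591-139452895, 12.7 kb upstream of the start, had a fold of 4.27 and a −log10 q of 4.12. This was the lowest of the 5 and rank 11289 of 12150. The GRHL2 region there (chr9:139452381-139452905) had a fold of 3.75, above 85.8% of its list, with 87 bp between the summits. In contrast to NOTCH3, the GRHL2 region of highest fold at NOTCH1 was next to the start, at chr9:139438724-139439369, 0.986 kb into the gene. It had a fold of 7.17 and a −log10 q of 17.5, rank 8193 in its list and above 94.6% of it. A second region near the start, 1.26 kb upstream (chr9:139441084-139441502), had a fold of 3.74. Neither overlapped an MLL3 region. No GRHL2 region was listed in the rest of the gene body, and the other 4 of the 7 regions had folds of 2.26 to 3.36. SEC16A and the long non-coding RNA C9orf163 are neighbours on the downstream side of NOTCH1 and NALT1 on the upstream side, per the RefSeq table of GRCh38.p14, so regions in the flanks may lie closer to those genes.

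NOTCH2, a receptor with a role in B cells and bile ducts, had 16 GRHL2 regions and no MLL3 region. The nearest MLL3 summit on the chromosome was 282.6 kb from its start, beyond the end of the gene. Its strongest GRHL2 region, at chr1:120603835-120604518 and 7.73 kb into the gene, had a fold of 15.9 and a −log10 q of 50.7. This was the highest fold among the 53 GRHL2 regions at the 6 genes that met no MLL3 region. The next, at chr1:120587921-120588739, had a fold of 5.20 and a −log10 q of 5.34. Of the 16 regions, 12 lay in the 158 kb gene body. Near the start, the region that spans it as placed to the nearest 1 kb (chr1:120611184-120612133) had a fold of 3.65. One 1.20 kb upstream (chr1:120612979-120613352) had a fold of 3.20. NOTCH2 has near-identical partial copies elsewhere on chromosome 1, and how reads that fit several copies were treated is not given in the sources used here.

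JAG1, a ligand of many epithelia, had the most GRHL2 regions, 17 in 87 kb, of which 5 reached a −log10 q of 2. The highest fold was at the start: the region at chr20:10653984-10655203 had a fold of 11.9 and a −log10 q of 25, with its summit 0.363 kb into the gene. Another pair near the start (chr20:10652999-10653263 and chr20:10653406-10653838) had folds of 2.43 and 2.32. Within the gene, the regions at chr20:10634919-10635728 and chr20:10645673-10646219 had folds of 7.59 and 4.99. None of these overlapped an MLL3 region. MLL3 was listed 17.6 kb beyond the end of the gene, at chr20:10600262-10600516, with a fold of 8.27 and a −log10 q of 12.0. The GRHL2 region under it (chr20:10600121-10600385) had a fold of 3.17 and a −log10 q of 1.36, the overlap was 124 bp, and the summits were 134 bp apart. That GRHL2 region had the smallest width in its list, 265 bp. The protein-coding SLX4IP is a neighbour on this side of JAG1, per the RefSeq table of GRCh38.p14, and which gene the shared region serves was not tested.

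JAG2, the other Jagged ligand, showed the arrangement of NOTCH3 at a greater distance. A GRHL2 region at chr14:105584541-105586277, 21.6 kb beyond the end of the gene, had a fold of 79.6 and a −log10 q of 449, rank 349 in its list. It contained the MLL3 region at chr14:105585357-105585840, with a fold of 10.6, a −log10 q of 23.2 and 93 bp between the summits. The other 4 GRHL2 regions had folds of 2.18 to 4.80, so the strongest exceeded the next 16.6 times. Near the start the folds were 4.80 (chr14:105633223-105634450, −log10 q 5.92) and 3.01 (chr14:105634959-105635385, which spans the start as placed to the nearest 1 kb). No MLL3 region lay within 49 kb of the start. The shared region lies near the edge of the window, and which gene it serves was not tested.

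HES1, the target gene, is only 2 kb long at this precision and had 8 GRHL2 regions in its 52 kb window. The strongest, at chr3:193858323-193860374, had its summit 3.54 kb beyond the end of the gene and 5.54 kb from the start. Its fold was 50.4 and its −log10 q 264, rank 946 in the list. MLL3 was listed inside it at chr3:193859419-193860161, with a fold of 10.6, a −log10 q of 24.4 and 45 bp between the summits, the smallest distance of the 5. A second strong GRHL2 region, at chr3:193876418-193877079 and 22.8 kb downstream of the start, had a fold of 11.8 and a −log10 q of 40.3 without MLL3. The 3 regions near the start, at chr3:193851747-193853413, chr3:193854884-193855319 and chr3:193855548-193855986, had folds of 3.26, 3.22 and 2.75. The pseudogene RN7SL215P and the long non-coding RNA LOC107986172 are neighbours on the downstream side of HES1, per the RefSeq table of GRCh38.p14. Which gene the shared region serves was not tested.

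None of the 6 starts had an MLL3 summit within 2 kb, or within 5 kb. Such summits are rare: of all end-to-end stretches of 4 kb over the chromosomes 1.47% held an MLL3 summit, and of those of 10 kb 3.38% did, so 0 of 6 is close to the background. GRHL2 had 13 summits within 2 kb of a start, at least 1 at each gene, and 16.5% of stretches of 4 kb held a GRHL2 summit. These stretches are not gene starts, and the share over all starts was not analysed here. Of the 13 regions 8 had a −log10 q of at least 2, with 19.7% in the list. Their folds ran from 2.32 to 11.9 with a median of 3.26. Away from the starts lay 45 GRHL2 regions in far longer stretches, so the strongest region of a gene is more likely to fall there. At NOTCH2, NOTCH3, JAG2 and HES1 the strongest GRHL2 region was away from the start. It exceeded the best region near the start by 4.35 times at NOTCH2, 15.5 times at HES1, 16.6 times at JAG2 and 28.8 times at NOTCH3. At NOTCH1 and JAG1 the order was the opposite, and the best region near the start exceeded the best one elsewhere by 1.91 and 1.56 times. By the highest GRHL2 fold the genes ranked NOTCH3, JAG2, HES1, NOTCH2, JAG1 and NOTCH1, from 130.7 to 7.17. Without replicates it cannot be said which neighbours in this order differ.

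**Figure D2:**
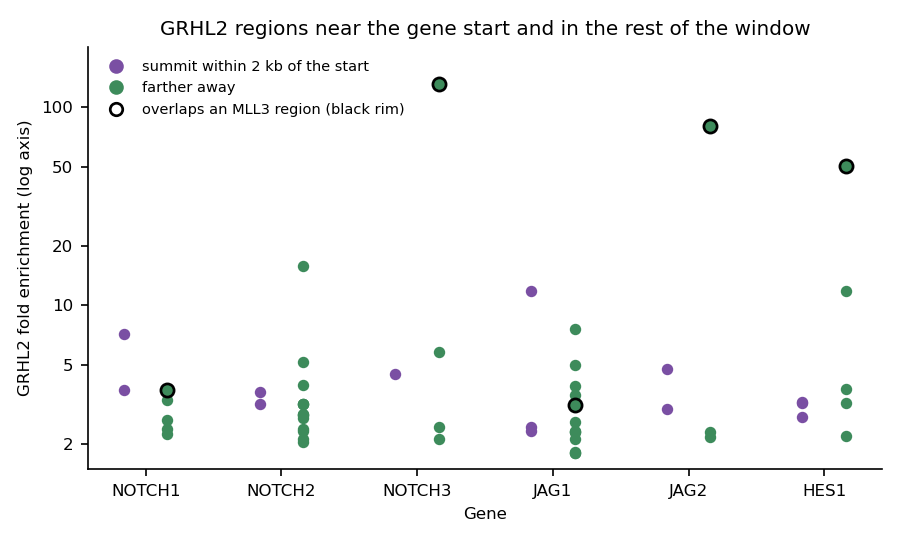
Fold enrichment (log axis) of each GRHL2 region, by gene, for summits within 2 kb of the start (purple) and farther away (green), with a black rim where an MLL3 region overlaps. The 13 regions near a start lie between 2.32 and 11.9 with no black rim among them. Of the whole GRHL2 list 6.15% overlap MLL3, and at that share few or none of 13 would. The regions of NOTCH3, JAG2 and HES1 with folds of 50.4 to 130.7 are farther away and overlap MLL3.

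MLL3 was found on the 3 GRHL2 regions of highest fold over the 6 genes and on regions of lower fold at NOTCH1 and JAG1. Those had folds of 3.75 and 3.17, above 85.8% and 71.4% of the GRHL2 list. At NOTCH1, NOTCH2 and JAG1 the strongest GRHL2 region of the gene did not overlap MLL3. All 3 GRHL2 regions that reached a −log10 q of 100 overlapped an MLL3 region, and in the whole list 76.2% of that class did. None of the 3 regions between 20 and 100 (at NOTCH2, JAG1 and HES1) did, with 38.3% in the list, and none of the 6 between 5 and 20, with 27.5% in the list. Between 2 and 5 it was 1 of 12, at NOTCH1, with 12.4% in the list, and below 2 it was 1 of 34, at JAG1, with 1.67% in the list. Over all classes 5 of 58 GRHL2 regions (8.62%, exact Clopper-Pearson 95% interval 2.86 to 18.98%) overlapped MLL3, with 6.15% in the list. Each of these intervals is wide enough to hold the share of the list. The exact upper limit for 0 of 6 is 45.9%, and for 0 of 3 it is 70.8%.

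The shared pairs differed in their GRHL2 fold. At NOTCH3, JAG2 and HES1 the GRHL2 folds exceeded those of 99.7%, 96.4% and 90.7% of the GRHL2 regions in the 10327 pairs of the whole data. MLL3 folds there were 14.7, 10.6 and 10.6, above the median of 6.65 for all shared MLL3 regions. At NOTCH1 and JAG1 the GRHL2 folds of 3.75 and 3.17 were under the median of 5.75, while the MLL3 fold was under its median at NOTCH1 and above it at JAG1. Summits were within 100 bp of each other in 4 of the 5 pairs, all except JAG1, with 49.1% in the list.

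**Figure D3:**
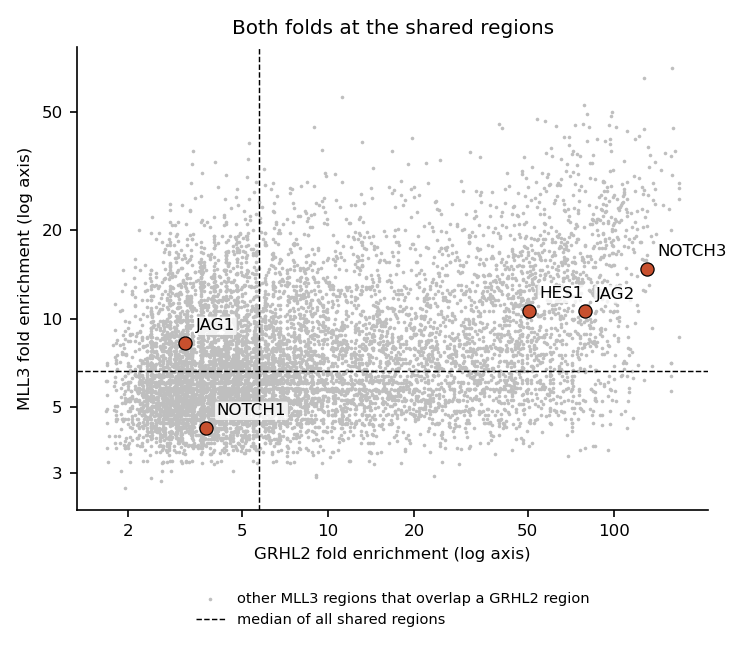
MLL3 fold against GRHL2 fold (both log axes) for the 10327 MLL3 regions that overlap a GRHL2 region (grey), with the 5 at Notch pathway genes in red and the medians of all pairs as dashed lines. NOTCH3, JAG2 and HES1 lie to the right of the GRHL2 median of 5.75, and NOTCH1 and JAG1 to its left.

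Pooled over the 6 genes, the median GRHL2 fold was 3.18, against 2.77 for all GRHL2 regions. By gene the median ran from 2.43 at JAG1, under that of the list, to 4.54 at NOTCH3. Of the pooled regions, 24 of 58 (41.4%, exact Clopper-Pearson 95% interval 28.6 to 55.1%) had a −log10 q of at least 2, with 19.7% in the list. At least 5 was reached by 12 (20.7%), with 9.32% in the list, and at least 100 by 3, with 1.41% in the list. The median MLL3 fold was 10.6 over the 5 regions, against 6.49 for the list. MLL3 widths of 255 to 743 bp lay on both sides of the list's median of 375 bp. Of the 58 GRHL2 summits, 30 were inside a gene, 14 upstream and 14 downstream. These are descriptions of regions that share a library, and no test was made.

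The number of regions was set beside that in all end-to-end stretches of the same length over the chromosomes, which include gene-poor sequence. At least 1 MLL3 region was in 23.3% of stretches as long as the NOTCH1 window, 21.8% for NOTCH3, 21.0% for JAG1, 19.2% for JAG2, 14.0% for HES1 and 37.8% for NOTCH2, the gene without one. A GRHL2 region that reached a −log10 q of 100 was in 6.001% of stretches for NOTCH3, 5.12% for JAG2 and 3.50% for HES1. For NOTCH1, NOTCH2 and JAG1, which had no such region, the shares were 6.53%, 12.5% and 5.69%. HES1 had 6 GRHL2 regions that reached a −log10 q of 2 in 52 kb, and 0.640% of stretches of that length had at least as many. JAG1 had 5 such regions, and 2.93% of stretches had at least as many. NOTCH1 had 4, and 6.90% of stretches had at least as many. For the other genes the share was 11.1% (NOTCH3), 17.7% (JAG2) and 19.7% (NOTCH2). With all listed GRHL2 regions, the share of stretches with at least as many was 3.85% for JAG1 and 8.52% for HES1. It was 23.1% for NOTCH2, 27.9% for NOTCH1, 31.1% for JAG2 and 35.9% for NOTCH3.

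**Figure D4:**
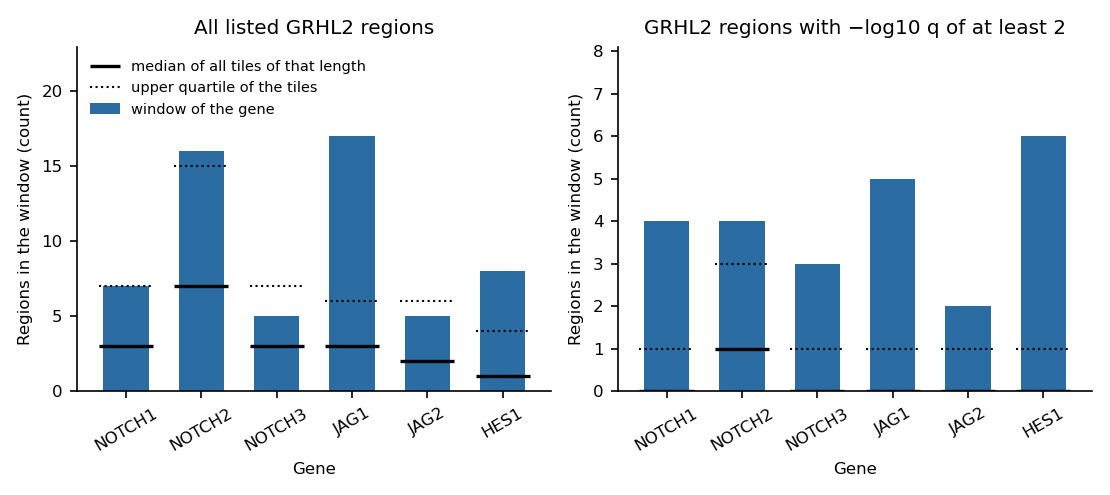
Number of GRHL2 regions in the window of each gene (bars), for the complete list on the left and for −log10 q of at least 2 on the right, with the median (solid line) and upper quartile (dotted line) of all stretches of the same length. On the right every bar is above the dotted line, from 2 regions at JAG2 to 6 at HES1, and on the left JAG1, NOTCH2 and HES1 are above it.

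The bounds of the windows left out some regions close by. Just inside, the shared region at JAG2 was 3.43 kb from the edge by its GRHL2 summit, and the outermost GRHL2 region of JAG1 (chr20:10679850-10680117, fold 2.31) was 0.056 kb from it. Just outside, an MLL3 region without GRHL2 lay 6.87 kb beyond the JAG1 window (chr20:10686525-10686929, fold 5.40). A GRHL2 region of fold 10.3 (chr19:15240934-15241748) lay 3.70 kb beyond the window of NOTCH3. Between 25 and 50 kb from the genes there were 4 MLL3 regions, 2 at JAG1, 1 at JAG2 and 1 at HES1, and 3 of them overlapped a GRHL2 region. The 1 at HES1, 46.6 kb upstream of its start (chr3:193807223-193807855), had an MLL3 fold of 5.32 on a GRHL2 region of fold 12.2, with summits 36 bp apart.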

How the data were processed

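ChIP-seq of MLL3 and of GRHL2 in KYSE510 cells gave 1 narrowPeak list each. The submitters' processing notes name hg19, BWA, Picard, MACS2 and deepTools, without versions; settings of these tools were not given. Fold enrichment (a ratio), −log10 p and −log10 q per region were used as the authors deposited them. The deposited score is 10 times the −log10 q in 12195 of the 12196 MLL3 lines and 10 times the −log10 p in all GRHL2 lines, and was not used. The lowest −log10 q was 2.07 for MLL3 and 0 for GRHL2, so the lists end at unequal thresholds, and depth is unknown.

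Only chromosomes 1 to 22, X and Y were used; unplaced and alternative contigs held 46 MLL3 and 345 GRHL2 regions. Overlap meant at least 1 bp. Coordinates are 1-based. Gene bounds came with the choice of genes. Chromosomes matched RefSeq for all 6 genes, and lengths differed by at most 0.684 kb from those on GRCh38.p14. No hg19 annotation or genome was used, so exons and introns are not named. Named regions were all MLL3 regions, the highest GRHL2 region of each gene, those with a −log10 q of at least 5 and those within 2 kb of a start; a few others were named after their values were seen. Intervals of shares are exact Clopper-Pearson 95% intervals and reflect counting error alone. The members and lists were chosen with earlier results of these data known, and the search for GTGGGAA was added after the files were seen. Alternatives were other flanks, thresholds, overlaps, distances and motifs. The overlap and motif search were tested on simulated data. Python 3.11.15, pandas 2.3.3 and SciPy 1.17.1 were used.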

Additional observations from a re-analysis of the deposited data

How the results depend on the processing

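Of 28 alternative settings, 17 kept a count equal to, or within 1.5 times, the reported one. Some of these counts could not move. A minimum −log10 q of 2 removes no MLL3 region, since the lowest in that list was 2.07. A stricter motif (AACCGGTT), distance (1 kb) or q cannot change a count of 0. A distance of 5 kb cannot raise the count of starts with a GRHL2 summit, which was already 6 of 6. The number of MLL3 regions at the 6 genes, 5, depended on the window: it was 1 with the gene only, 2 with 10 kb on each side and 9 with 50 kb. The 58 GRHL2 regions became 30 with the gene only, 24 at a minimum −log10 q of 2, 12 at a minimum of 5 and 10 at a minimum fold of 5. Of the 5 MLL3 regions, 3 overlapped a GRHL2 region when GRHL2 was limited to a minimum −log10 q of 5, 3 at a minimum fold of 5, and 3 when its best 12150 regions by q were used. With AACNNGTT in place of AACCNGTT, 1 of the 6 stretches at the starts held the motif. The count of starts with an MLL3 summit was 0 within 2 kb and stayed at 0 within 5 kb. Within 1 kb it could only be 0. Depth is unknown for both libraries, so a factor may be present where no region is listed. No paired analysis was possible because there was a single library for each factor.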
